A study of Mus musculus with 4 samples.

Results

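The 10 genes described here encode Spink5, 5 kallikreins (Klk5, Klk6, Klk7, Klk8 and Klk10), the membrane serine proteases St14 and Prss8, and the membrane inhibitors Spint1 and Spint2. They were chosen by name, with the difference between the sorted fractions already known, out of 31731 genes in the rebuilt table, of which 11970 were tested. All 10 members passed the filter of at least 1 FPKM (sequenced fragments relative to the length of the transcript and the depth of the library) in at least 2 libraries, and 9 were above 0 in every library. Because that contrast chose them, their differences between fractions are given as a description without a test. The libraries hold mRNA of stem cells from squamous cell carcinomas of mouse skin, a cancer of keratinocytes, sorted by integrin alpha6 and CD44 after cells of other lineages were removed. The mCherry Pos fraction (experiments 1 and 2, n = 2) expressed the fluorescent reporter of TGF-beta signalling, and the mCherry Neg fraction (experiments 1 and 2, n = 2) did not. All 4 libraries came from mice of the C57BL/6 X FBV background that carried TetO-Hras together with LV-rtTA3-TGF-beta reporter, so both fractions share the Hras transgene, whose TetO promoter needs the rtTA3 transactivator. The labels name neither the promoter of the transactivator nor the age of the mice, nor whether tumours were pooled or experiments came from different mice. The p-values below therefore reflect the spread among these 4 libraries, which may be technical.

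In the upper epidermis, kallikreins are secreted trypsin-like or chymotrypsin-like proteases that cut the desmosomal cadherins and corneodesmosin holding corneocytes together, which lets the outermost cells shed. LEKTI, the product of Spink5, is a secreted chain of Kazal-type inhibitor domains that blocks several of them, and its loss causes Netherton syndrome in humans. On the cell surface, matriptase (St14) and prostasin (Prss8) activate one another and process epithelial proteins, among them profilaggrin, while HAI-1 (Spint1) and HAI-2 (Spint2) are Kunitz-type inhibitors that hold matriptase and prostasin in check.

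Both mCherry Pos libraries lay above both mCherry Neg libraries for 7 of the 10 members, a pattern that 15.3% of all tested genes showed. These were Spink5, Klk6, Klk7, Klk8, Klk10, Prss8 and Spint1. Spint2 alone lay below in both, as 42.6% of tested genes did, and Klk5 and St14 overlapped between the fractions. On the log2(FPKM + 1) scale, 4 members, Spink5, Klk6, Klk10 and Prss8, differed by at least 2-fold upward in both experiments, against 2.58% of tested genes, and 0 members were at least 2-fold lower, against 3.09%. Prss8 is among the 4 through its mCherry Neg values, both listed at 0, which can be failed estimates, and it passed the filter through mCherry Pos alone. Because the choice of members used this contrast, nothing further is read from these counts. The median log2 difference was 1.61 over the members and -0.18 over all tested genes. Scaling the libraries by median-of-ratios size factors moved the median of all tested genes to 0.01, and then 8 members lay above and 0 below, with Spint2 overlapping. In sorted bulk RNA, fewer cells that express a gene and less RNA per cell cannot be told apart.

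**Figure D1:**
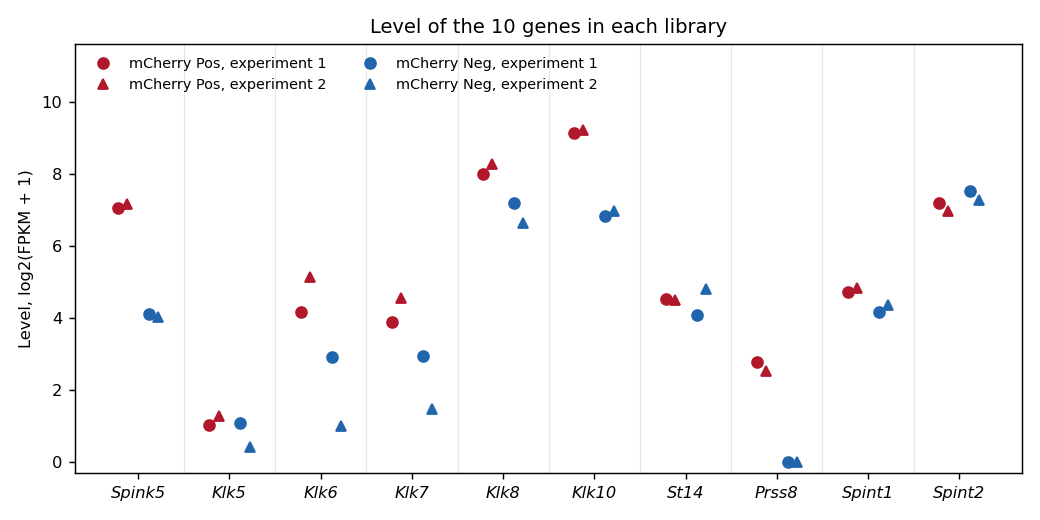
Level of each of the 10 genes on the log2(FPKM + 1) scale in every library, with mCherry Pos in red left of mCherry Neg in blue, circles for experiment 1 and triangles for experiment 2. Spink5 and Klk10 show tight pairs that stand apart between fractions, while Klk5 and St14 overlap.

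Windows of 300 bases around the RefSeq transcription starts (GRCm38.p6, all on the + strand) are shown for 4 kallikreins of 1 tandem cluster that lay higher in mCherry Pos. Klk10 and Klk8 were the most abundant kallikreins, and Klk6 and Klk7 varied most between experiments. Capitals mark TTAAAA, the Smad box, which reads GTCTG on the gene strand or its complement on the other, and the GC box, which reads GGGCGG or its complement. The Klk10 window lies at chr7:43780804-43781103, the Klk8 window at chr7:43797327-43797626, the Klk7 window at chr7:43811044-43811343, and the Klk6 window, which belongs to the start nearest the form read in these libraries, at chr7:43825200-43825499.
Klk10: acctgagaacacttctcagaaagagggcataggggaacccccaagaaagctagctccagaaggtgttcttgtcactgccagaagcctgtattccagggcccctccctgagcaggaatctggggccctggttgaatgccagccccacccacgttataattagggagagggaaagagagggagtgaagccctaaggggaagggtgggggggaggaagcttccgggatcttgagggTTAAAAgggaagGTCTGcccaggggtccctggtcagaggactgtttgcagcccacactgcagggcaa
Klk8: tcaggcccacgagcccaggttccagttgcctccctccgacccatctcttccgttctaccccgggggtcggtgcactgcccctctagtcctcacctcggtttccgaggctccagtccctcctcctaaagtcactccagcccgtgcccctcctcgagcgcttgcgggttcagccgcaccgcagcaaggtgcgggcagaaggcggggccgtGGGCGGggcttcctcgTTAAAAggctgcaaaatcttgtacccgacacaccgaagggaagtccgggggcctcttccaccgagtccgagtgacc
Klk7: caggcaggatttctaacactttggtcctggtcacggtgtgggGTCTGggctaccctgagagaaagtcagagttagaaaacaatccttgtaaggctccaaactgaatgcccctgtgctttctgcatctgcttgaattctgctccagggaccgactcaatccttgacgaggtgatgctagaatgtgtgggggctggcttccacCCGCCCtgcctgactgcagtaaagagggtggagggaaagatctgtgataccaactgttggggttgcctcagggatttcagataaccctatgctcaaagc
Klk6: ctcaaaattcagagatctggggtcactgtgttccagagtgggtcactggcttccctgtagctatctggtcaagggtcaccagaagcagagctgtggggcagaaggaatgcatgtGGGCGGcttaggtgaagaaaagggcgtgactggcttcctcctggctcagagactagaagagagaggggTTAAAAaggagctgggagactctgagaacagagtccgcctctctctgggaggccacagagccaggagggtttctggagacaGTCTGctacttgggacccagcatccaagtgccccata

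Windows of 7 members were searched, and Klk6 had 2, which made 8 windows. Klk6 counted as a member with a motif if either window held it, while the shares below are per window. Spink5 was left out of this search, and St14 and Prss8 had no RefSeq window. Each motif was searched on both strands, no 2 marked matches overlapped in the printed windows, and shares are over all 32851 mouse promoter windows of the same length. TTAAAA, looked for after the sequences had been read, was in Klk10, Klk8 and Klk6, 3 of the 7 members, against 19.2% of all windows. Its first base lay 17 bases before the RefSeq start in Klk10, 26 before it in Klk8 and 68 before it in Klk6. On the gene strand with its first base 20 to 40 bases before the start, as in Klk8, it was found in 1.04% of all windows. On GRCm38, the GENCODE start of the form read here lay 19 bases upstream of the RefSeq start for Klk10, 55 bases upstream for Klk6 and at the same base for Klk7 and Klk8, so these distances depend on the annotation. The TATA box TATAAA was in 0 of the 7 members, against 13.6% of windows, and the Grainyhead-type element AACNNGTT in 0, against 4.2%. GTCTG was in 5 members, against 49.6% of windows, and GGGCGG in 5, against 35.7%. The AP-1 element TGANTCA was found in Spint1 alone among the 7 members searched, against 7.81% of windows. The Klk5 window, which was searched but is not printed, held none of these motifs. These matches are letters in a window and not measured binding sites.

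Spink5 (ENSMUSG00000055561, chr18:44122889-44182155, mm9, + strand) had 130.7 and 143.3 FPKM in the mCherry Pos libraries of experiments 1 and 2, against 16.4 and 15.3 FPKM in mCherry Neg. Both positive libraries were far above both negative ones, and the pairs were tight, with means of 137.0 ± 8.90 in mCherry Pos and 15.8 ± 0.79 in mCherry Neg (SD, n = 2 each). The level was 7.97-fold higher in mCherry Pos in experiment 1 and 9.38-fold in experiment 2, a log2(FPKM + 1) difference of 3.03 ± 0.16 (SD over the experiments). At a pseudocount of 1 it was the largest mean difference of the 10 members. In 3 libraries all Spink5 signal lay on the 32-exon reference transcript of 4785 bases. In mCherry Pos of experiment 2, 26.2% lay on a form assembled from the reads, with 32 exons and 3242 bases, which ends before the reference does.

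Klk10 (ENSMUSG00000030693, chr7:51036424-51040780, mm9, + strand), a kallikrein whose expression is lost in many human breast cancers, was the most abundant member in mCherry Pos. It had 557.9 and 598.2 FPKM in mCherry Pos of experiments 1 and 2, against 111.5 and 125.1 FPKM in mCherry Neg. The fold of 5.0 in experiment 1 and 4.78 in experiment 2 was the steadiest among the kallikreins, with a log2 difference of 2.28 ± 0.05 (SD over the experiments). All of its signal lay on 1 reference transcript of 6 exons and 1354 bases in every library.

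Klk8 (ENSMUSG00000064023, chr7:51052947-51059192, mm9, + strand), or neuropsin, a protease of skin and brain, had 253.4 and 307.8 FPKM in mCherry Pos, against 146.2 and 98.5 FPKM in mCherry Neg. The positive libraries were above the negative ones in both experiments, 1.73-fold in experiment 1 and 3.12-fold in experiment 2. Each library also held a 6-exon form assembled from its reads beside the 5-exon reference, starting 16 to 413 bases upstream of the reference start. These assembled forms differed between libraries in their ends and in length, from 736 to 1140 bases, so they are not 1 shared form. They carried 24.7% and 63.1% of Klk8 in mCherry Pos, against 78.5% and 63.8% in mCherry Neg. The split between reference and assembled forms thus differed between the positive libraries. On the reference transcript alone the log2 difference was 2.11, against 1.21 over reference and assembled forms.

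Klk6 (ENSMUSG00000050063, chr7:51079869-51087397, mm9, + strand), a trypsin-like kallikrein first known from brain, had 17.02 and 34.3 FPKM in mCherry Pos, against 6.51 and 1.01 FPKM in mCherry Neg. The fractions did not overlap, but the fold was 2.62 in experiment 1 and 33.8 in experiment 2, and the log2 difference of 2.70 had an SD of 2.03 over the experiments. Without the mCherry Neg library of experiment 2 the log2 difference was 1.75, and without that of experiment 1 it was 3.65. Klk6 was read mainly from a 6-exon transcript of 1117 bases, while the annotated forms of 7 exons with an upstream start were listed at 0 in all 4 libraries.

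Klk7 (ENSMUSG00000030713, chr7:51066814-51071729, mm9, + strand), the chymotrypsin-like kallikrein of the stratum corneum, had 13.8 and 22.3 FPKM in mCherry Pos, against 6.64 and 1.80 FPKM in mCherry Neg. It was 2.07-fold higher in mCherry Pos in experiment 1 and 12.4-fold in experiment 2, and without the mCherry Neg library of experiment 2 its log2 difference was 1.28. Klk5 (ENSMUSG00000074155, chr7:51097639-51106551, mm9, + strand), the trypsin-like kallikrein that activates Klk7 in human skin, had 1.05 and 1.45 FPKM in mCherry Pos, against 1.13 and 0.325 FPKM in mCherry Neg. The fractions overlapped, and Klk5 was the lowest kallikrein among the members in every library.

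Spink5, Klk5, Klk6, Klk7 and Klk8 were higher in experiment 2 than in experiment 1 within mCherry Pos and lower within mCherry Neg. The share of all tested genes with this pattern was not computed, so it is not read as a trait of these genes. From experiment 1 to experiment 2, on the log2(FPKM + 1) scale, the change in Klk6 was 0.97 within mCherry Pos and -1.90 within mCherry Neg. The changes in Klk7 were 0.66 within mCherry Pos and -1.45 within mCherry Neg, and those in Klk8 were 0.28 within mCherry Pos and -0.56 within mCherry Neg. Spink5 changed by 0.13 within mCherry Pos and -0.10 within mCherry Neg, and Klk10 by 0.10 within mCherry Pos and 0.16 within mCherry Neg. Whether the difference between fractions changed with the experiment was not tested, because each fraction gave 1 library per experiment.

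**Figure D2:**
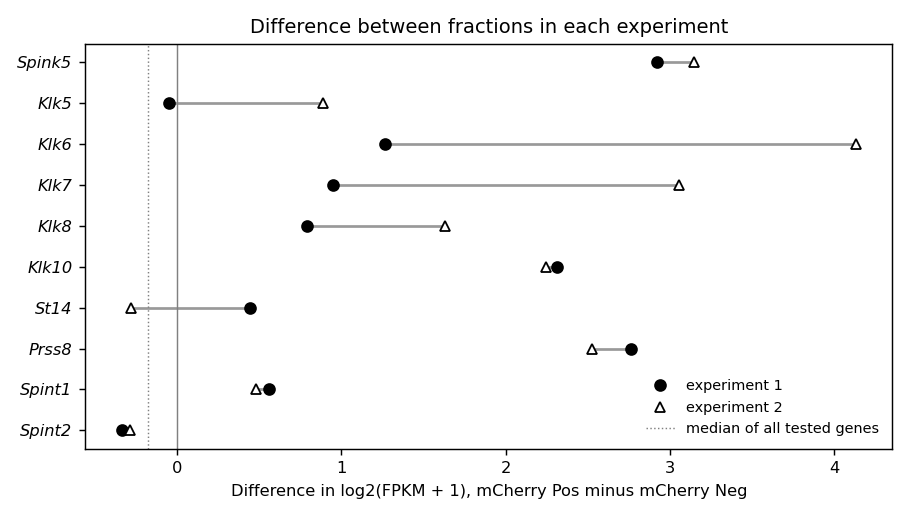
Difference in log2(FPKM + 1), mCherry Pos minus mCherry Neg, for each of the 10 genes, with a filled circle for experiment 1, an open triangle for experiment 2 and a dotted line at the median of all tested genes. The experiments lie close together for Spink5, Klk10, Prss8, Spint1 and Spint2, and farthest apart for Klk6, at 1.26 and 4.13; under median-of-ratios scaling the Spint2 fractions overlap.

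The 5 kallikreins summed to 843 and 964 FPKM in mCherry Pos, against 272 and 227 FPKM in mCherry Neg. Klk10 made up 66.2% and 62.1% of that sum in mCherry Pos, against 41.0% and 55.2% in mCherry Neg. Klk8 made up 30.1% and 31.9% in mCherry Pos, against 53.8% and 43.5% in mCherry Neg. These shares depend on the assembled Klk8 forms. On reference transcripts alone, an alternative chosen after seeing the data, Klk10 made up 72.0% and 77.7% in mCherry Pos, against 71.0% and 76.7% in mCherry Neg, and the fractions overlapped. Klk8 then made up 24.6% and 14.8% in mCherry Pos, against 19.96% and 21.8% in mCherry Neg, higher in mCherry Pos in experiment 1 and lower in experiment 2. The kallikrein sum was 6.45 and 6.73 times the Spink5 level in mCherry Pos, against 16.6 and 14.9 times in mCherry Neg. RNA of the inhibitor thus differed by more than the summed RNA of the proteases, most of it Klk10 and Klk8. On reference transcripts alone the ratio was 5.93 and 7.28 in mCherry Pos, against 9.59 and 10.7 in mCherry Neg. That gap was smaller and in the same direction. Klk5, Klk6 and Klk7 together made up 3.77% and 6.02% of the sum in mCherry Pos, against 5.25% and 1.38% in mCherry Neg. In experiment 2 the fold was 33.8 in Klk6 and 12.4 in Klk7, against 9.38 in Spink5. In experiment 1 those folds were 2.62 and 2.07, against 7.97. These are ratios of RNA per transcript length and do not measure protein or protease activity.

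**Figure D3:**
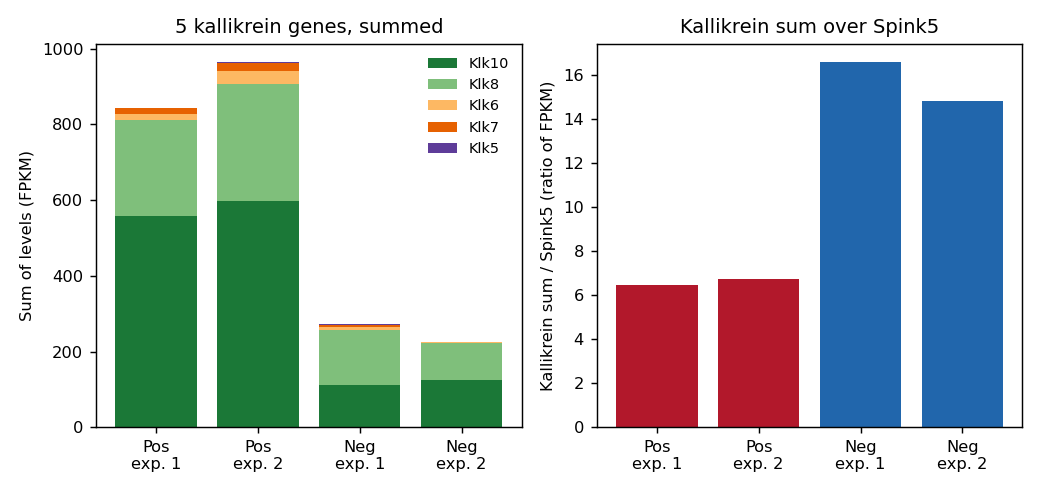
Left, the levels of the 5 kallikrein genes stacked in FPKM in each library, mCherry Pos left of mCherry Neg; right, that sum divided by the Spink5 level. The sum is higher in mCherry Pos, and the ratio to Spink5 is lower there (6.45 and 6.73, against 16.6 and 14.9 in mCherry Neg), with a smaller gap on reference transcripts alone.

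St14 (ENSMUSG00000031995, chr9:30896987-30939438, mm9, - strand) had 22.2 and 21.8 FPKM in mCherry Pos, against 16.1 and 26.7 FPKM in mCherry Neg. The negative libraries lay on both sides of the positive ones, and the log2 difference was 0.44 in experiment 1 and -0.28 in experiment 2. Its mean difference of 0.08 turned to -0.27 without the mCherry Neg library of experiment 1. Prss8 (ENSMUSG00000030800, chr7:135069239-135073627, mm9, - strand) had 5.79 and 4.75 FPKM in mCherry Pos and was listed at 0 in both mCherry Neg libraries. No fold is given against a listed 0, which in these files can be a failed estimate. The positive signal was divided between 2 reference transcripts of 6 exons, with 69.1% and 61.3% on the longer one, and the files mark neither as fully covered by reads.

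Spint1 (ENSMUSG00000027315, chr2:119063098-119075263, mm9, + strand) had 25.4 and 27.4 FPKM in mCherry Pos, against 16.9 and 19.4 FPKM in mCherry Neg. It was 1.5-fold higher in mCherry Pos in experiment 1 and 1.41-fold in experiment 2, the smallest difference among the members that lay above. An 11-exon form of 2273 bases carried 51.3% and 45.9% of Spint1 in mCherry Pos, against 65.2% and 33.4% in mCherry Neg, and counting only the most abundant form reduced the log2 difference to 0.09, against 0.52 over all forms. Spint2 (ENSMUSG00000074227, chr7:30041350-30066996, mm9, - strand) had 145.2 and 125.1 FPKM in mCherry Pos, against 183.6 and 152.8 FPKM in mCherry Neg, a log2 difference of -0.31 that was -0.10 under median-of-ratios scaling, where the fractions overlapped. The Spint2 level was 5.73 and 4.57 times that of Spint1 in mCherry Pos, against 10.9 and 7.89 times in mCherry Neg. The sum of both inhibitors was 7.69 and 7.0 times the St14 level in mCherry Pos, against 12.5 and 6.46 times in mCherry Neg, and there the fractions overlapped.

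By mean FPKM, which is scaled to transcript length, the order in mCherry Pos was Klk10 (578), Klk8 (281), Spink5 (137), Spint2 (135), Spint1 (26.4), Klk6 (25.7), St14 (22.0), Klk7 (18.02), Prss8 (5.27) and Klk5 (1.25). Neighbours whose libraries overlapped in mCherry Pos were Spink5 with Spint2, Spint1 with Klk6, Klk6 with St14, and St14 with Klk7. In mCherry Neg, Spint2 (168) led, above Klk8 (122) and Klk10 (118), which overlapped. Below them stood St14 (21.4) and Spint1 (18.1), which overlapped, then Spink5 (15.8). Klk7 (4.22) overlapped Klk6 (3.76), Klk6 overlapped Klk5 (0.727), and Prss8 was listed at 0. In mCherry Neg, Spink5 lay below Spint1 in both libraries, while its libraries (16.4 and 15.3 FPKM) overlapped those of St14 (16.1 and 26.7 FPKM).

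The contrast of experiment 2 with experiment 1 was not used to choose the members, and there they could be tested. With reporter state as a term, limma called 21 of the 11970 tested genes (0.175%) and 0 of the 10 members. An unadjusted limma p under 0.05 was found for 0 members, against 1327 of the 11970 tested genes. Terms for experiment and reporter state leave little in 4 libraries to estimate the spread from. With 10 members, these counts of 0 are therefore not read as stability between experiments. Adjusted p-values of the members from limma ran between 0.444 and 0.952. Spint2 had the lowest, with a difference of -0.24 ± 0.10 (SE, log2 scale, experiment 2 minus 1) and lower levels in experiment 2 in both fractions. This term averages over both fractions, so opposite changes such as those of Klk6 and Klk7 partly offset each other in it. Klk6 differed by -0.46 ± 0.70 and Klk7 by -0.40 ± 0.52 (SE, log2 scale), larger in size than Spint2 but with wider errors.

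The stretch of the kallikrein cluster between Klk14 and Klk15 on chromosome 7 holds 12 kallikrein genes, 7 of them not members, of which 3 were tested. Klk13 and Klk12, 2 of those 3, rose in mCherry Pos. They belong to a gene list chosen with earlier results of these data known, so their p-values are not independent support. Klk13 had 144.6 and 146.6 FPKM in mCherry Pos, against 20.9 and 23.3 FPKM in mCherry Neg (log2 difference 2.67 ± 0.13 SE, limma adjusted p = 0.00466). Klk12 had 8.45 and 14.6 FPKM in mCherry Pos, against 1.05 and 0.656 FPKM in mCherry Neg (limma adjusted p = 0.0228). Klk11 had 33.9 and 38.4 FPKM in mCherry Pos, against a listed 0 and 16.3 FPKM in mCherry Neg, and did not pass (limma adjusted p = 0.223). Of the untested genes, Klk14 and Klk15 were listed at 0 in all libraries, Klk4 was at 0.0261 FPKM in mCherry Pos of experiment 1 and listed at 0 elsewhere, and Klk9 was listed at 0 in all but mCherry Neg of experiment 1, at 4.15 FPKM. Along the cluster, Klk13 and the run between Klk12 and Klk6, leaving out Klk9, thus held every kallikrein above 2 FPKM in both mCherry Pos libraries, while Klk5, next to Klk6, was near 1 FPKM.

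**Figure D4:**
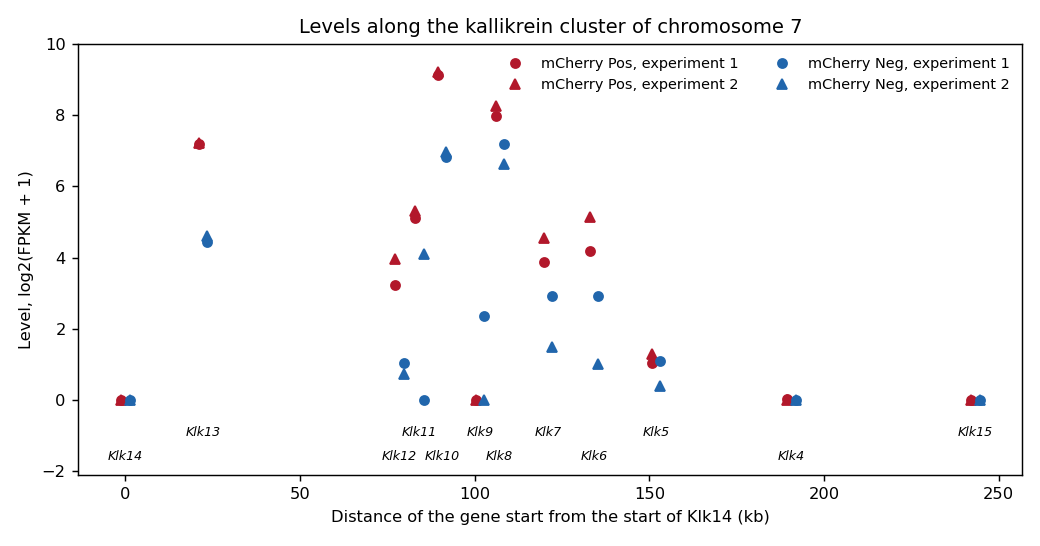
Levels on the log2(FPKM + 1) scale of the 12 kallikrein genes in the order of the chromosome 7 cluster, against the distance of each gene start from that of Klk14 in kilobases, with mCherry Pos in red left of mCherry Neg in blue. Klk13 and Klk10 stand apart between fractions in both experiments, while Klk14, Klk4 and Klk15 lie at or near 0.

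The genes whose profiles over the 4 libraries lay nearest that of Spink5, by Euclidean distance between centred log2(FPKM + 1) values, were Sgpp2 (0.0890), Sptssb (0.146), Tgm1 (0.273), Neu2 (0.290) and Mal (0.300). Sgpp2, a sphingosine 1-phosphate phosphatase, had 6.71 and 7.92 FPKM in mCherry Pos and was listed at 0 in both mCherry Neg libraries. Sptssb, a small subunit of serine palmitoyltransferase, had 26.7 and 33.2 FPKM in mCherry Pos, against 2.62 and 2.57 FPKM in mCherry Neg. Tgm1 is a transglutaminase of the cornified envelope, Neu2 a cytosolic sialidase and Mal a membrane protein of apical transport. Among the other members, Prss8 ranked 21 in nearness to Spink5, Klk10 55, Klk6 158, Klk7 162, Klk8 279, Spint1 908, Klk5 1211, St14 3157 and Spint2 7431. These ranks rest largely on the contrast that was known when the members were chosen, and are given as a description. The nearness of Sgpp2 and Prss8 also rests on listed zeros, which can be failed estimates.

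Over all 11970 genes, limma called 608 (5.08%), with 305 higher (2.55%) and 303 lower (2.53%) in mCherry Pos; after median-of-ratios scaling the split was 418 higher and 196 lower. With the experiment number of the titles as a block, 1251 were called, 489 higher (4.09%) and 762 lower (6.37%). The block adds a term to a fit of 4 libraries, which leaves less to estimate the spread from. The lists below were chosen with earlier results of these data known, so their calls are a description and not independent support. These calls rest on the full set of libraries, and most of them were lost whenever 1 library was left out. Such a fit leaves a lone library in a group, so its calls are not counted here. The 1 inhibitor called with all 4 libraries passed in none of these fits.

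Of 28 other serine proteases, 16 were tested, of which 6 rose, 2 fell and 8 did not pass, with a median log2 difference of 0.68. After scaling 7 rose and 1 fell. Besides Klk13 and Klk12, Tmprss11e, a transmembrane serine protease of squamous epithelia, rose, with 17.7 and 23.1 FPKM in mCherry Pos, against 2.42 and 2.47 FPKM in mCherry Neg (log2 difference 2.62, limma adjusted p = 0.0125). Prss23, a secreted serine protease, fell, with 7.98 and 9.20 FPKM in mCherry Pos, against 35.3 and 44.8 FPKM in mCherry Neg (log2 difference -2.09, limma adjusted p = 0.0155).

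Of 34 other protease inhibitors, 15 were tested, of which 1 rose, 0 fell and 14 did not pass, with a median log2 difference of 0.04. With the experiment block 4 rose and 4 fell, and after scaling 0 passed. Cstb, the cysteine protease inhibitor cystatin B, was the one that rose, with 754.9 and 752.0 FPKM in mCherry Pos, against 407.5 and 327.3 FPKM in mCherry Neg (limma adjusted p = 0.0479). Slpi, a secreted inhibitor of neutrophil elastase, had 638.2 and 960.3 FPKM in mCherry Pos, against 132.5 and 38.0 FPKM in mCherry Neg, and passed with the block alone (limma adjusted p = 0.0510, and 0.0352 with the block). Spink7, a Kazal-type relative of Spink5, had 6.22 and 15.0 FPKM in mCherry Pos, against 1.37 and 1.46 FPKM in mCherry Neg (limma adjusted p = 0.0570, and 0.0292 with the block). Cst6, an inhibitor of cathepsins and legumain, had 26.1 and 107.7 FPKM in mCherry Pos, against 6.41 and 3.29 FPKM in mCherry Neg, and passed in neither fit (limma adjusted p = 0.0722, and 0.0535 with the block).

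Of 29 substrates and signalling partners of these proteases, 20 were tested, of which 2 rose, 2 fell and 16 did not pass, with a median log2 difference of -0.07. With the block 3 rose and 5 fell. Dsc2, a desmosomal cadherin, rose, with 143.5 and 189.8 FPKM in mCherry Pos, against 27.8 and 28.2 FPKM in mCherry Neg (limma adjusted p = 0.0103). Dsc1, the desmosomal cadherin of the upper layers, was listed at 0 in both mCherry Pos libraries, against 4.57 and 6.41 FPKM in mCherry Neg (limma adjusted p = 0.0142). It is 1 of the 2 counted as lower, and that call rests on listed zeros, which can be failed estimates. Tslp, a cytokine that keratinocytes release after protease-activated receptor signalling, fell, with 33.4 and 38.9 FPKM in mCherry Pos, against 138.9 and 110.5 FPKM in mCherry Neg (limma adjusted p = 0.0184). Scnn1a, a subunit of the epithelial sodium channel that prostasin activates, rose, with 6.13 and 5.73 FPKM in mCherry Pos, against 1.89 and 1.87 FPKM in mCherry Neg (limma adjusted p = 0.0359).

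Of 31 genes of filaggrin and cornified layer processing, 25 were tested, of which 11 rose, 2 fell and 12 did not pass, with a median log2 difference of 0.96. After scaling 9 rose and 1 fell. Tgm1 rose, with 68.2 and 75.0 FPKM in mCherry Pos, against 10.5 and 8.44 FPKM in mCherry Neg (limma adjusted p = 0.00763). Tgm3, a second transglutaminase of the envelope, had 585.1 and 690.5 FPKM in mCherry Pos, against 93.4 and 111.4 FPKM in mCherry Neg (limma adjusted p = 0.00892). Elovl4, which makes very long chain fatty acids of barrier lipids, rose by a log2 difference of 2.32 (limma adjusted p = 0.00962), and Grhl3, a transcription factor of barrier formation, by 2.40 (limma adjusted p = 0.0139). Filaggrin itself (Flg) was not tested, with 0.938 and 0.654 FPKM in mCherry Pos, against 2.09 and 0.324 FPKM in mCherry Neg.

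**Figure D5:**
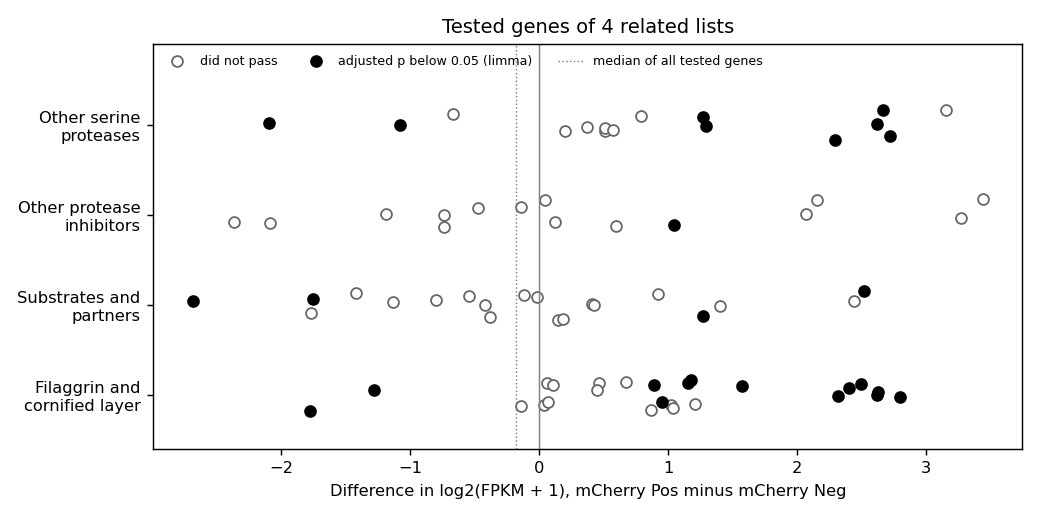
Difference in log2(FPKM + 1), mCherry Pos minus mCherry Neg, of each tested gene of the 4 lists, with filled points for genes past the limma threshold and a dotted line at the median of all tested genes. Most called serine proteases and cornified layer genes lie to the right, higher in mCherry Pos, and 1 inhibitor is called, which no longer passes after median-of-ratios scaling.

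Depth came to 3.55 and 3.29 aligned gigabases in mCherry Pos, against 3.13 and 3.75 in mCherry Neg. Granular keratinocytes are the layer where kallikreins and LEKTI are made. The granular markers analysed were 11 of 12, without Krt1. Of these, 10 were tested, 5 rose, 0 fell and 5 did not pass (limma), and Krt10, Lor and Flg overlapped between the fractions. Levels of the 11 summed to 10184 and 10111 FPKM in mCherry Pos, against 4588 and 3961 FPKM in mCherry Neg. Krtdap, which passed with the block alone (limma adjusted p = 0.0711, and 0.0150 with the block), held 58.3% to 65.9% of that sum, and without it the sum was 3592 and 4220 FPKM in mCherry Pos, against 1564 and 1557 FPKM in mCherry Neg. Of the 11 markers, 8 also belong to the cornified layer list. The basal markers analysed were 8 of 11, without the keratins Krt5, Krt14 and Krt15. Of these, 0 rose and 1 fell (3 with the block), and the sum was 874 and 928 FPKM in mCherry Pos, against 1634 and 1851 FPKM in mCherry Neg. The part of either in the differences of the members was not tested. Of the surface proteins used in the sort, Itga6 had 181 and 205 FPKM in mCherry Pos, against 331 and 410.4 FPKM in mCherry Neg (limma adjusted p = 0.0565, and 0.0189 with the block), and Cd44 had 88.0 and 81.3 FPKM in mCherry Pos, against 81.5 and 112.3 FPKM in mCherry Neg (limma adjusted p = 0.616). Leukocyte markers, 12 of 12 analysed, summed to 7.22 and 13.8 FPKM in mCherry Pos, against 6.12 and 7.19 FPKM in mCherry Neg, and the pan-leukocyte marker Ptprc stayed between 0.150 and 0.362 FPKM. Fibroblast markers, 8 of 8, summed to 13.0 and 28.4 FPKM in mCherry Pos, against 27.6 and 42.3 FPKM in mCherry Neg. Endothelial markers, 6 of 6, summed to 3.01 and 3.38 FPKM in mCherry Pos, against 5.51 and 12.8 FPKM in mCherry Neg. Mast cell and melanocyte markers summed to at most 4.45 FPKM in any library, and the melanocyte marker Pmel was listed at 0 in all 4.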

How the data were processed

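Libraries were prepared from total RNA for Illumina sequencing of mRNA, per the labels' protocols. The submitters' processing notes name TopHat, Cufflinks and mm9, without versions. The deposited tables give FPKM for reference transcripts and for forms assembled separately in each library, per the file headers.

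FPKM was summed per gene over transcripts of at least 200 exonic bases, because shorter ones carried 95.1% to 98.9% of all FPKM. Names came from transcript identifiers through GENCODE M21 (84077 transcripts), from gene identifiers in the files (5109), or from at least 50% exon overlap on the same strand (6469). The test took genes that reached 1 FPKM in at least 2 libraries, on log2(FPKM + 1), two-sided, in limma 3.58.1 in R 4.3.3 (eBayes with trend) and Benjamini-Hochberg adjustment over the 11970 genes, at a threshold of 0.05. The pseudocount of 1 understates changes of low genes. With 2 libraries a group, exact permutation p-values cannot fall under 0.333 and were not computed. Each file holds 1 library, and no file gives fragment counts, so no count model was used. Depth is coverage over FPKM, as aligned bases. The procedure was tested on simulated data.

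The titles number the experiments, so the numbers pair the libraries; deviations from the group means correlated at r = 0.174 across genes within an experiment. The members and the gene lists were chosen with earlier results of these data known. Named genes were the 10 members, up to 4 tested genes of each list with the smallest p, the 5 genes nearest Spink5 in profile, and Itga6 and Cd44. Klk11, the untested kallikreins, Flg, Krtdap, Krt10, Lor, Ptprc and Pmel were named after their values were seen. Alternatives were another pseudocount, other filters, median-of-ratios scaling, reference transcripts only, the most abundant transcript, an experiment block, listed zeros left out, and leaving out each library. Figures were drawn with matplotlib 3.10.9. Promoter windows come from RefSeq (GRCm38.p6).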

Additional observations from a re-analysis of the deposited data

How the results depend on the processing

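The count of 7 members with both mCherry Pos libraries above both mCherry Neg libraries ran from 6 to 8 over the alternatives. It was 6 of the 9 members kept when listed zeros were left out, and 6 of the 8 kept at a minimum of 5 FPKM. Over all 10 members it was 6 with the most abundant transcript and 8 with scaling. Without a filter on low values, limma called 4 genes in all, and 0 serine proteases, 0 inhibitors, 0 substrates and 0 cornified layer genes. With reference transcripts only it called 95 genes in all, 1 serine protease, 0 inhibitors, 1 substrate and 3 cornified layer genes. Of the 95, 76 were among the 608 called over all forms, and the 1 substrate was not among the substrates called there. With the most abundant transcript it called 313 genes in all, 5 serine proteases, 0 inhibitors and 7 cornified layer genes. With the replicate block, which pairs libraries by experiment, it called 1251 genes in all, 8 inhibitors and 8 substrates, and all 608 genes of the unblocked fit were among the 1251. Without genes listed at 0 it called 1211 genes in all, 7 inhibitors and 10 substrates. Of the 1211, 525 were among the 608, as were 490 of the 614 called with median-of-ratios scaling. The inhibitor count was 0 with a pseudocount of 0.1 or with scaling, and 2 with a minimum of 5 FPKM. Leaving out 1 library at a time gave 3 to 180 genes in all, 0 to 2 serine proteases, 0 to 2 inhibitors, 0 to 1 substrates and 0 to 5 cornified layer genes, where the lone library of a group is assumed to vary like the other libraries. Between experiments the count was 8 with a pseudocount of 0.1, 1 without a filter, 3 with scaling, 1 with reference transcripts only, 4 with the most abundant transcript, 129 without listed zeros and 3 without a term for reporter state. The difference of St14, 0.08 over all libraries, ran from -0.27 without the mCherry Neg library of experiment 1 to 0.43 without that of experiment 2. The cause of these changes was not tested. FPKM tables give no counts, and with 2 libraries a group a change that did not pass is not shown to be absent.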
